A study of Homo sapiens with 15 samples.

Results

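Interferon-stimulated genes and the genes of MHC class I antigen presentation were followed as 43 of the 19612 genes in a bulk RNA-seq table of the human lung adenocarcinoma line H1975 and of H1975–OR, an osimertinib-resistant subline of it. Members were taken by gene symbol from a named list, and all 43 symbols were found. H1975 carries an EGFR that is mutated, and osimertinib is an inhibitor of mutant EGFR. 1,25(OH)2D3 is the hormonal form of vitamin D3, which acts through the vitamin D receptor. There were 5 groups of 3 libraries each, named Samples 1a to 5c. Samples 1 were H1975 cells given vehicle, and Samples 2 were H1975–OR cells given vehicle. Samples 3 were H1975–OR cells given 100 nM 1,25(OH)2D3, Samples 4 were H1975–OR cells given 500 nM osimertinib, and Samples 5 were H1975–OR cells given both agents at these doses. All cells were treated for 96 h in medium with charcoal-stripped serum, with doses at 0, 48 and 92 h, and the letters a, b and c stand for 3 separate passages. H1975–OR is 1 resistant subline that was kept in 500 nM osimertinib, and Samples 2 and 3 were given none of it during the 96 h. A difference from H1975 is thus a difference between these lines and cannot be told apart from other changes acquired in culture. In vehicle it also cannot be told apart from removal of the drug from H1975–OR.

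Interferons are secreted proteins that bind receptors on the cell surface, and the signal reaches the nucleus through STAT proteins and interferon regulatory factors (IRFs). Type I and type III interferons act through a complex of STAT proteins with IRF9, which binds a DNA element named ISRE (interferon-stimulated response element) in the promoters of its targets. The products of these targets sense foreign RNA, block viral replication, attach the ubiquitin-like protein ISG15 to other proteins, or load peptides on MHC class I molecules, the surface proteins that show peptides to cytotoxic T cells.

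Each library held 4378033 to 6140025 estimated counts, and levels are given here as counts per 1000000 (CPM) scaled by TMM over the 15 libraries. Sample 3a stood apart: its counts differed from Samples 3b and 3c by a chi-square of 49.6 and 63.6 per degree of freedom, against 9.28 to 25.6 for the other pairs of replicates. As the authors did, it was left out of the fits and means. The group of 1,25(OH)2D3 alone therefore rests on 2 libraries. In Sample 3a, 4 of the 43 members were above the other 14 libraries and 6 were below them. The share of all genes at such extremes was not counted. The genes of lung epithelium gave a mixed picture of the label: KRT18, a keratin of simple epithelia, lay between 1776 and 2918 CPM and NKX2-1, the lung lineage factor, between 31.9 and 98.9 CPM, while NAPSA and SFTPB, genes of alveolar type II cells, did not pass 2.25 and 1.90 CPM in any library. Of 10 blood and immune cell markers, CD3E, MS4A1 and NKG7 had no count in any of the 15 libraries, and the pan-leukocyte gene PTPRC did not pass 2.12 CPM. Of the same list, CD68 lay between 4.71 and 38.6 CPM. CD14 had a mean of 6.92 CPM in H1975 and was at 50.8 CPM in Sample 3a.

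Of 9 interferon genes listed (IFNA1, IFNA2, IFNB1, IFNE, IFNG, IFNK, IFNL1, IFNL2 and IFNL3), none had more than 5 counts in any library, and IFNA2, IFNG and IFNL2 had 0 in all 15. A count of 0 allows up to 3 counts, or 0.476 to 0.707 CPM at the depth of these libraries, and this limit covers counting error only. Transcripts of these 9 genes were thus not detectable or near that limit in both lines and under each treatment. The highest was IFNE, at 1.00 ± 0.10 CPM in Samples 3b and 3c (SD, n = 2) and 0.197 ± 0.193 CPM in H1975–OR vehicle (SD, n = 3). Its counts were too few for it to be tested.

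The promoters show what most members share in sequence. RefSeq windows of 250 bases before to 50 bases after the transcription start (GRCh38.p14) were at hand for 34 of the 43 members, DDX58 being matched under its present symbol RIGI. The windows of IRF7, IFIT2, MX2, OAS2, OASL, USP18, TRIM22, HLA-E and NLRC5 were not used here. The core of the ISRE was searched as GAAANNGAAA on both strands, where N is any base. It was found in 23 of these 34 members (67.6%), against 1195 of the 27305 genes that have a window (4.38%) and 1255 of all 35116 windows (3.57%). The first bases of the matches in members lay between base -196 and base 11 from the start. A second element, the GAS core TTCNNNGAA, bound by STAT dimers and searched on both strands without regard to overlap with the ISRE, was found in 10 of the 34 members (29.4%) and in 9.38% of genes or 7.66% of all windows. IRF1, IRF9, OAS1 and IFI35 held the GAS letters without the ISRE letters. DDX58, HERC6, XAF1, SAMD9L, STAT2, HLA-B and HLA-C held neither, which says only that these letters are not in this window. The stretches below are those around an ISRE match in members that differed between H1975–OR and H1975, and in B2M and TAP1, a subunit of class I molecules and their peptide transporter. They run 5′ to 3′ on the strand of the gene, and capitals mark the matches, which read TTTCNNTTTC where the element lies on the opposite strand and run together where 2 matches overlap.
IFI27, chr14:94110603-94110662 (+ strand): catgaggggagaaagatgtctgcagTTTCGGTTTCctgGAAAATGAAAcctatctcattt
IFI44, chr1:78649746-78649805 (+ strand): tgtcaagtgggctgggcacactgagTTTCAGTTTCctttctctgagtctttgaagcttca
IFIT5, chr10:89414498-89414557 (+ strand): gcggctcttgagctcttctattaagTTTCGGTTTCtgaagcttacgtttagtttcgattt
PARP9, chr3:122564307-122564366 (- strand): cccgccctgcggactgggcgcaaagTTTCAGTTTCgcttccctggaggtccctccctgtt
BST2, chr19:17405726-17405785 (- strand): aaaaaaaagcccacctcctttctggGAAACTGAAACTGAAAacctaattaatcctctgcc
HERC5, chr4:88456969-88457028 (+ strand): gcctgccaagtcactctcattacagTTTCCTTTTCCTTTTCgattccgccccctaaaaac
B2M, chr15:44711348-44711407 (+ strand): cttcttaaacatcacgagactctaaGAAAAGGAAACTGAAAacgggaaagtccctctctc
TAP1, chr6:32853804-32853863 (- strand): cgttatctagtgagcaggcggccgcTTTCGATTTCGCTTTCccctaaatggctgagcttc
The first 4 of these genes were lower in H1975–OR and BST2 and HERC5 were higher, as described next. They are shown because they hold a match, so its presence in both sets says nothing about direction. Of the other members that differed, SAMD9L held no match, and IFIT2, MX2, TRIM22, HLA-E and USP18 were not searched.

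**Figure D1:**
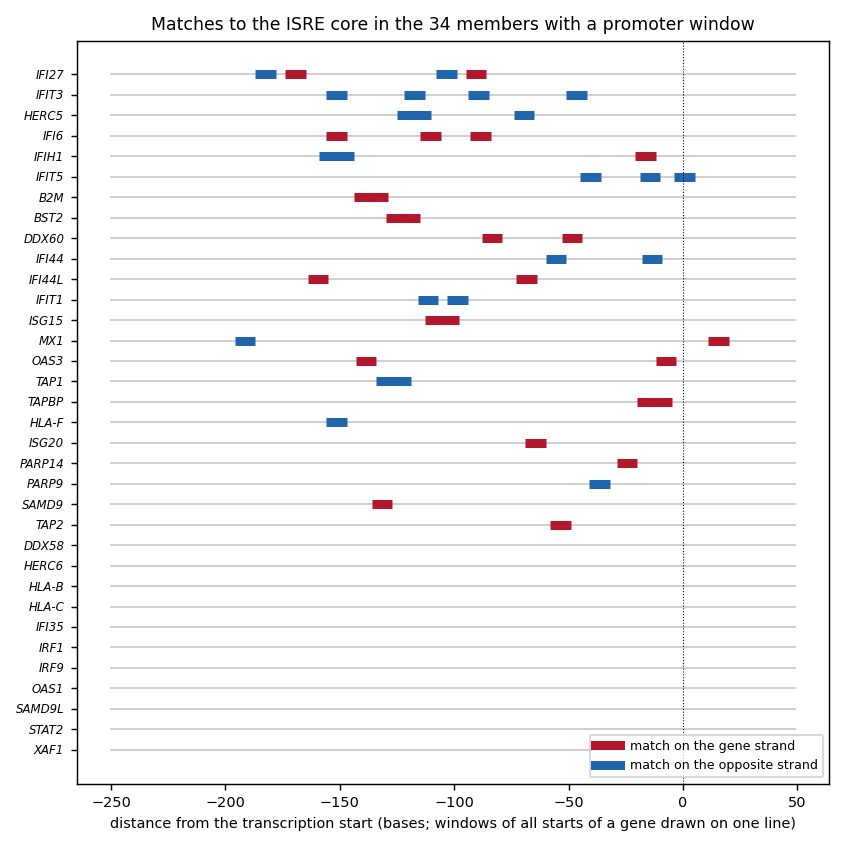
Matches to the ISRE core GAAANNGAAA in the promoter windows of the 34 members that have one, by distance in bases from the transcription start (x axis), with red bars for matches on the strand of the gene and blue bars for the opposite strand. The 23 members with a match are at the top, and the lines without bars are the 11 members whose windows lack these letters.

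The first comparison asked how these genes differed between the resistant and the parental line, both in vehicle. Of the 43 members, 7 were higher in H1975–OR (SAMD9L, TRIM22, HERC5, MX2, IFIT2, BST2 and HLA-E) and 5 were lower (IFI27, IFI44, USP18, PARP9 and IFIT5), with edgeR at an adjusted p under 0.05, and 31 did not pass. Over all 12513 genes tested, 9.89% were higher and 10.3% were lower, against 16.3% and 11.6% of the members. The libraries of the lines did not overlap in 7 of the 43 members on the higher side and 6 on the lower side. The same held for 2377 and 2536 of the 12513 genes, so a lack of overlap, given below by gene, was common over all genes. The members did not move one way: 21 had a positive and 22 a negative log2 fold change, with a median of -0.0234 beside 0.00605 for all genes.

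**Figure D2:**
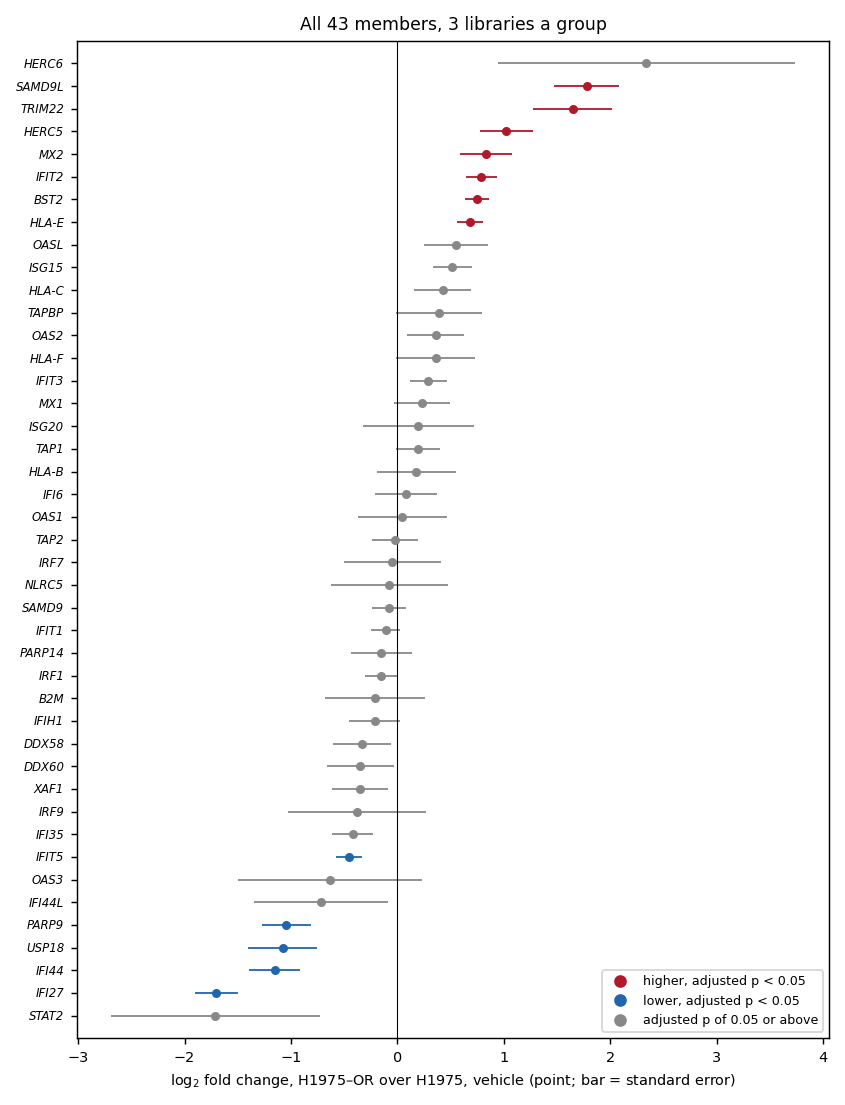
Log2 fold change of each of the 43 members, H1975–OR over H1975 in vehicle (x axis, points, with bars for the standard error), with red for higher, blue for lower and grey for members that did not pass. HERC6 and STAT2 have the farthest estimates that did not pass and the widest bars, and the 12 members that passed lie on both sides of 0.

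The antiviral effectors held most of the members that rose, with 4 of these 7 genes higher and none lower. In bulk RNA, fewer cells with a transcript and less of it per cell cannot be told apart. SAMD9L, a restriction factor that inhibits translation, stood at 20.2, 10.7 and 12.8 CPM in Samples 1a, 1b and 1c and at 33.5, 66.1 and 49.7 CPM in Samples 2a, 2b and 2c. Each H1975–OR library was above each H1975 library (log2 fold change 1.78 ± 0.31 (SE), edgeR adjusted p = 0.00565). Its neighbour SAMD9 was at 101 ± 12.8 CPM in H1975 and 94.8 ± 18.4 CPM in H1975–OR (SD, n = 3), with overlapping libraries and an edgeR adjusted p of 0.764.

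TRIM22, an interferon-induced ubiquitin ligase, was among the low members in the parental line, at 5.88, 3.10 and 5.49 CPM, and reached 17.6, 15.5 and 11.9 CPM in the H1975–OR libraries. All 3 resistant libraries lay above the parental ones (log2 fold change 1.65 ± 0.37 (SE), edgeR adjusted p = 0.0163). BST2 (tetherin), a membrane protein that holds budding virions at the cell surface, was at 183, 160.2 and 155 CPM in H1975 and 251, 285 and 291 CPM in H1975–OR. These libraries were close to each other within a line and did not overlap between lines (log2 fold change 0.75 ± 0.11 (SE), edgeR adjusted p = 0.00303). MX2, a dynamin-like GTPase that acts against retroviruses, moved from 6.57, 7.83 and 8.53 CPM to 13.1, 14.9 and 12.5 CPM without overlap (log2 fold change 0.83 ± 0.24 (SE), edgeR adjusted p = 0.0426). Its paralog MX1, at 11.2 ± 2.37 and 13.0 ± 0.790 CPM in the 2 lines (SD, n = 3), did not pass, nor did ISG20, an exonuclease that degrades viral RNA.

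The IFIT family, proteins that bind foreign RNA ends, split. IFIT2 was at 39.8, 46.1 and 50.2 CPM in H1975 and 74.0, 81.4 and 76.8 CPM in H1975–OR. It rose in every resistant library (log2 fold change 0.79 ± 0.15 (SE), edgeR adjusted p = 0.00754). IFIT5 was at 92.4, 100.5 and 107 CPM in H1975 and 72.5, 74.8 and 68.9 CPM in H1975–OR. It was lower in every resistant library (log2 fold change -0.46 ± 0.12 (SE), edgeR adjusted p = 0.0319). The step was small but larger than the spread within either line. IFIT1 and IFIT3 overlapped between the lines, with log2 fold changes of -0.11 ± 0.14 and 0.29 ± 0.18.

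Of the 4 genes of ISG15 conjugation, 1 rose, 1 fell and 2 did not pass. HERC5, the ligase that attaches ISG15 to newly made proteins, was at 11.9, 20.9 and 22.1 CPM in H1975 and 34.7, 33.7 and 42.2 CPM in H1975–OR, with no overlap (log2 fold change 1.02 ± 0.25 (SE), edgeR adjusted p = 0.0236). USP18, the protease that removes ISG15 and also restrains the type I receptor, went the other way, from 14.7, 22.8 and 24.0 CPM to 11.8, 10.9 and 5.97 CPM, again with no overlap (log2 fold change -1.08 ± 0.32 (SE), edgeR adjusted p = 0.0478). ISG15 itself was at 67.8, 91.4 and 87.2 CPM in H1975 and 90.1, 140.3 and 119 CPM in H1975–OR, where Sample 2a was within the parental range (log2 fold change 0.52 ± 0.18 (SE), edgeR adjusted p = 0.0757). HERC6 was erratic, with 0 counts in 5 of the 15 libraries and between 1.43 and 24.5 CPM in Samples 2a, 2b, 2c, 4a and 4b, and no reading was taken from it.

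The remaining 8 interferon-stimulated genes held 3 of the 5 members that fell, and none of them rose. IFI27, a mitochondrial protein that is among the most inducible of interferon targets, was at 102, 119 and 158 CPM in H1975 and 45.6, 38.0 and 32 CPM in H1975–OR. Its highest resistant library was below the lowest parental one by more than the SD of either group (log2 fold change -1.70 ± 0.20 (SE), edgeR adjusted p = 0.00135). IFI44 was at 33.0, 40.6 and 45.5 CPM and 20.8, 19.2 and 12.9 CPM in the 2 lines, and it fell in all 3 resistant libraries (log2 fold change -1.15 ± 0.24 (SE), edgeR adjusted p = 0.0117). PARP9, a macrodomain protein of the ADP-ribosylation system, was at 50.5, 66.8 and 87.0 CPM and 38.0, 31.6 and 28.3 CPM, with no overlap (log2 fold change -1.04 ± 0.23 (SE), edgeR adjusted p = 0.0154). IFI6, IFI35, IFI44L and XAF1 did not pass, with log2 fold changes from -0.72 for IFI44L to 0.08 for IFI6. PARP14, of the same family as PARP9, was at 112 ± 23.4 and 99.6 ± 43.2 CPM (SD, n = 3) and did not pass.

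**Figure D3:**
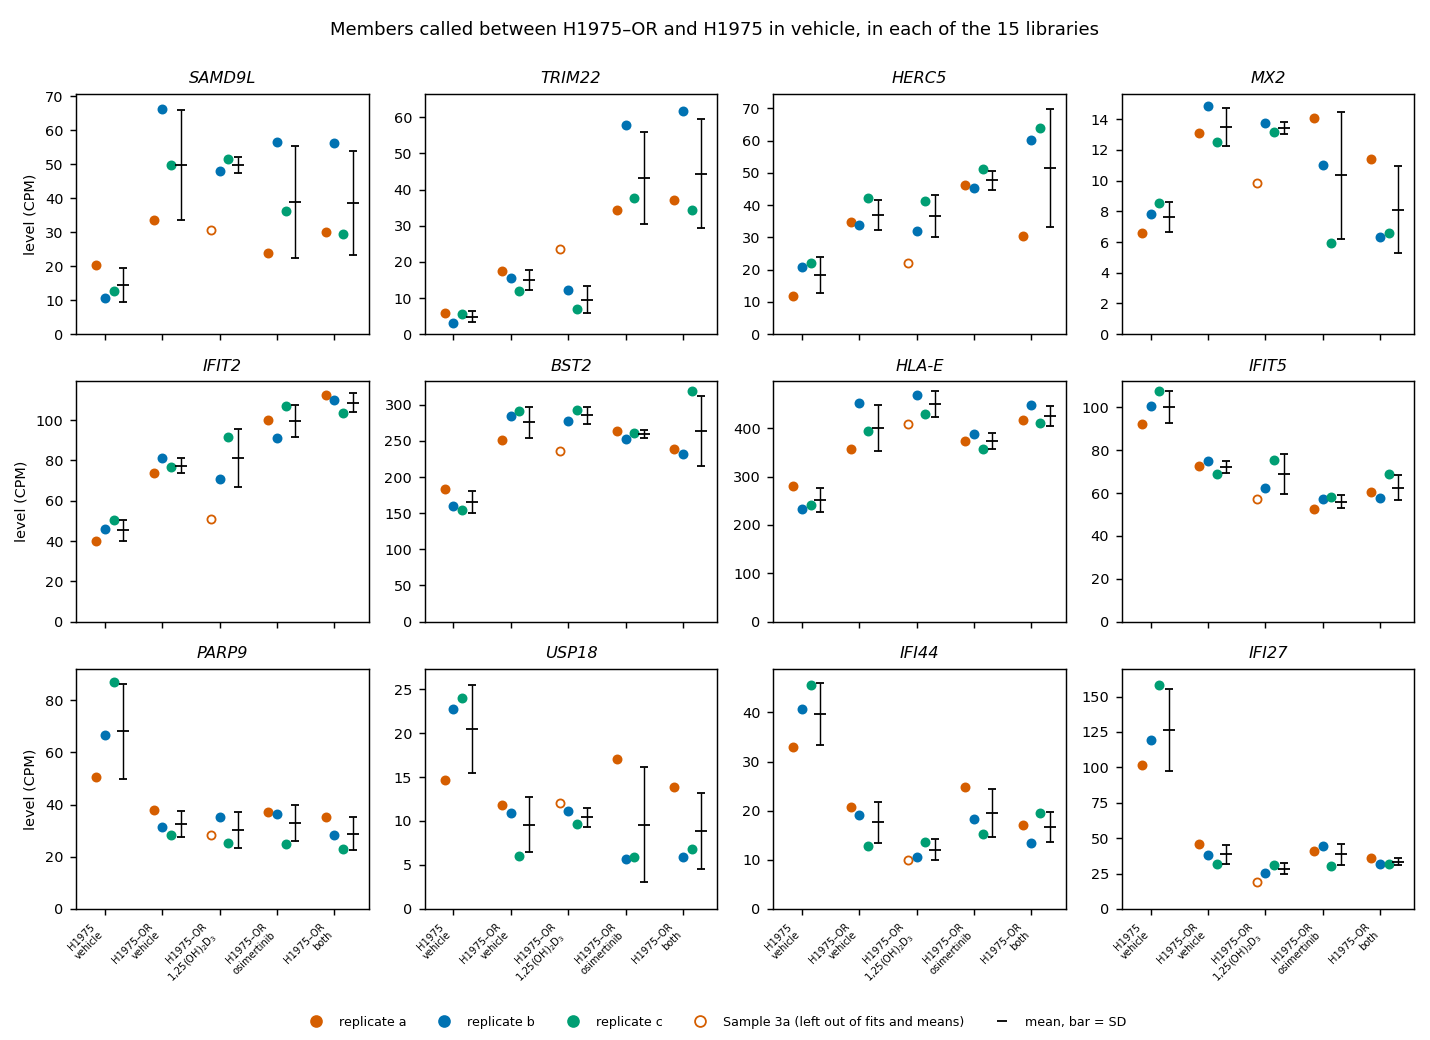
Level in CPM (y axis, from 0) of the 12 members that passed between H1975–OR and H1975 in vehicle, in each of the 15 libraries by group (x axis), with a point per library coloured by replicate letter, an open point for Sample 3a, and the mean with SD beside each group. In all 12 panels the 3 H1975–OR vehicle libraries lie on one side of the 3 H1975 libraries. The panels show members chosen because they passed, so this separation is no further support.

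None of the 7 RNA sensors and OAS genes passed. The helicases IFIH1 (MDA5) and DDX58 (RIG-I), which detect viral double-stranded and 5′-triphosphate RNA, were at 20.2 ± 5.07 and 49.1 ± 19.1 CPM in H1975 and at 17.2 ± 1.98 and 38.5 ± 3.23 CPM in H1975–OR (SD, n = 3). Log2 fold changes in this group went from -0.63 for OAS3 to 0.55 for OASL, the enzymes and enzyme-like proteins that answer double-stranded RNA. OAS1, OAS2, OASL and DDX60 lay between 6.19 CPM, for OAS1, and 90.6 CPM, for DDX60, over the 15 libraries. OAS3 was near the limit of detection, at 0 to 2.45 CPM in the 15 libraries, and did not pass the filter on low counts in the fits of the H1975–OR groups alone, where 42 members were tested.

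The regulators did not pass either. IRF1, which drives interferon and class I genes, was at 33.9, 31.7 and 34.7 CPM in H1975 and 30.6, 31.8 and 27.0 CPM in H1975–OR, overlapping groups at a level that is steady within each line. IRF7, the factor that amplifies type I interferon genes, was at 6.39 ± 1.86 and 6.11 ± 2.21 CPM (SD, n = 3). STAT2 was at 11.9, 6.92 and 18.5 CPM and 7.76, 0 and 3.47 CPM, and IRF9 at 9.51, 8.37 and 4.06 CPM and 8.17, 4.54 and 4.04 CPM, so that both factors of the ISRE-binding complex measured here were low and spread widely between replicates. Their log2 fold changes were -1.71 ± 0.98 and -0.38 ± 0.65 (SE), with edgeR adjusted p of 0.256 and 0.719.

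Of the 9 class I members, HLA-E passed. HLA-E, a class I molecule that presents signal peptides and engages inhibitory receptors of NK cells, was at 281, 234 and 241 CPM in H1975 and 358, 451 and 394 CPM in H1975–OR. Every resistant library was above every parental library (log2 fold change 0.68 ± 0.12 (SE), edgeR adjusted p = 0.00705). HLA-B, one of the classical molecules, was at 1053, 556 and 568 CPM in H1975 and 1213, 755 and 472 CPM in H1975–OR, so that the spread within a line was larger than the difference between lines (log2 fold change 0.18 ± 0.37, SE). HLA-C was at 104 ± 22.9 and 138 ± 45.9 CPM and HLA-F at 14.2 ± 5.70 and 18.0 ± 6.03 CPM (SD, n = 3). The peptide transporter subunits TAP1 and TAP2, the loading factor TAPBP (tapasin) and the class I transactivator NLRC5 had overlapping groups. The class I members that did not pass had log2 fold changes from -0.21 for B2M to 0.43 for HLA-C. Reads of the HLA genes can be shared between near-identical transcripts and alleles, so the split among HLA-B, HLA-C, HLA-E and HLA-F is uncertain.

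B2M, the light chain that every class I molecule needs at the surface, was measured at a low level throughout, 2.36 to 10.4 CPM or 11 to 52 counts in the 15 libraries. How the quantification assigned reads to B2M is not given in the sources used here, so this is the level in the deposited table and was not checked against another measure of B2M. Per kilobase of the canonical transcript (GENCODE 44) the median level over the 15 libraries was 4.13 CPM per kb for B2M, rank 33 of the 43 members, against 506 for HLA-B, 154 for HLA-E, 92.6 for HLA-C and 12.6 for HLA-F. On the same scale the members after HLA-B were BST2, at 253 CPM per kb, and ISG15, at 176, and the lowest was OAS3, at 0.125. This order is over all libraries, and in H1975 alone IFI27, at 175 CPM per kb, was above BST2, at 166, and ISG15, at 129.

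Other interferon-related genes are given for context, beside the 9.89% higher and 10.3% lower of all genes tested. Of 9 receptor and kinase genes tested, 3 were higher in H1975–OR, 1 was lower and 5 did not pass. IFNAR1, a chain of the type I interferon receptor, was at 51.8 ± 6.33 CPM in H1975 and 79.4 ± 7.12 CPM in H1975–OR (log2 fold change 0.63 ± 0.14, edgeR adjusted p = 0.0141). Both chains of the type II receptor rose, IFNGR1 by 0.43 ± 0.12 and IFNGR2 by 0.79 ± 0.18 on the log2 scale (SE). IFNLR1, the chain specific to type III interferons, was at 9.39 ± 5.29 CPM in H1975 (SD, n = 3) and at 0.646 ± 0.947 CPM in H1975–OR, and it fell by 3.77 on the log2 scale.

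Of 12 tested genes of nucleic acid sensing that are no members, TLR3, the endosomal receptor for double-stranded RNA, rose from 1.38 ± 0.736 to 10.3 ± 2.77 CPM (SD, n = 3), and IFI16 and TRIM25, a DNA sensor and a ubiquitin ligase of the RIG-I route, fell by 1.00 and 0.70 on the log2 scale. Among 29 other interferon-stimulated genes tested, 2 rose and 4 fell, shares that are near those of all genes. The membrane protein IFITM1, which blocks viral entry, had the farthest change of these, from 59.3 ± 5.29 to 9.50 ± 5.58 CPM (log2 fold change -2.63 ± 0.36, edgeR adjusted p = 0.00224), while the GTPase GBP2 rose from 74.3 ± 9.67 to 188 ± 62.2 CPM. PLSCR1 and APOL6 fell by 0.97 and 0.84 on the log2 scale. Of 19 other class I processing genes tested, the peptidase ERAP2 and the immunoproteasome subunit PSMB10 rose, by 0.57 and 0.91 on the log2 scale, and none fell. None of 7 negative regulators of cytokine and interferon signalling passed.

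Other marker genes moved with the line as well. The summed level of the 10 blood and immune markers was 32.1 to 46.9 CPM in H1975 and 13.8 to 20.6 CPM in H1975–OR vehicle, nearly all of it CD68 and CD14, and 1 of the 2 that could be tested, CD68, was lower. Of 5 class II markers, HLA-DRA and HLA-DPA1 were lower, with sums of 62.4 to 69.5 CPM and 24.2 to 40.7 CPM. Of 10 epithelial markers, 4 were lower (KRT7, KRT19, EPCAM and CDH1) and KRT18 was higher. The part of these differences in the members' changes was not tested.

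The calls between the lines did not rest equally on the libraries. IFIT2, BST2, SAMD9L, HLA-E, IFI27 and IFI44 passed in all 14 alternative analyses. Leaving out Sample 2b ended 6 of the 12 calls, leaving out Sample 1b or 2c ended 5 each, leaving out Sample 1c ended 3, and leaving out Sample 1a or 2a ended 1 each, and MX2 passed in none of these 6 analyses. Of the 14 alternatives, MX2 passed in 3, USP18 in 5, IFIT5 in 8, HERC5 in 11, and PARP9 and TRIM22 in 12 each.

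1,25(OH)2D3 alone, against vehicle in H1975–OR, gave no member that passed among the 43. Of all 12513 genes, 0.152% passed in this comparison with edgeR, and DESeq2 called no member. An unadjusted p under 0.05 was found for 3 of the 43 members and for 7.27% of all genes. These 3 were IFI6, XAF1 and HERC6, given here as values. HERC6, from which no reading was taken, was at 1.43, 6.20 and 9.43 CPM in vehicle and at 0.429 and 0 CPM in Samples 3b and 3c. IFI6, a protein of the endoplasmic reticulum that limits flaviviruses, was at 12.7, 21.9 and 17.7 CPM in vehicle and at 6.44 and 11 CPM in Samples 3b and 3c, and XAF1, a pro-apoptotic interferon target, was at 24.1, 21.1 and 17.7 CPM and 8.15 and 14.3 CPM. Both treated libraries lay below the vehicle libraries for each gene, with log2 fold changes of -1.0 ± 0.34 and -0.89 ± 0.30 and edgeR adjusted p of 0.534 and 0.535, and in Sample 3a they were at 11.9 and 22.4 CPM, with XAF1 inside the range of the vehicle libraries. The groups did not overlap in 8 of the 43 members on the lower side and in 2 on the higher side. Over all 12513 genes this held for 1532 and 1648, so such separation was common with 2 libraries against 3. The median log2 fold change of the members was -0.0645, beside -0.00734 for all genes.

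The regulators and class I genes did not pass either. IRF1 was at 25.8 and 25.1 CPM after 1,25(OH)2D3 (log2 fold change -0.23 ± 0.17), HLA-B at 839 and 534 CPM (-0.25 ± 0.42), HLA-E at 469 and 430.5 CPM (0.17 ± 0.14) and TAP1 at 73.2 and 59.6 CPM (-0.43 ± 0.23). The median standard error of the 43 members was 0.305 on the log2 scale. Changes well above this size could be missed with 2 libraries against 3. The estimates of IFI6 and XAF1 given above were larger than this and did not pass, which does not show that these genes changed. No gene of the receptor, sensing, negative regulator, other interferon-stimulated or class I processing lists passed in this comparison.

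Osimertinib against vehicle in H1975–OR gave no member that passed with edgeR without a block for the passages, where 0.048% of 12503 genes passed. Vehicle here, as for both agents below, means 96 h without the osimertinib in which the line was kept. The comparison thus sets continued drug against its removal. An unadjusted p under 0.05 was found for 4 of 42 members and for 7.53% of all genes. Over all genes the same-letter H1975–OR libraries of these groups deviated together, while over the members their correlations were -0.133 to 0.198. With the replicate letter as a block TRIM22 passed. It was at 17.6, 15.5 and 11.9 CPM in vehicle and at 34.4, 57.9 and 37.6 CPM after osimertinib. Each treated library was well above each vehicle library and above its own letter. The log2 fold change was 1.53 ± 0.32 with an edgeR adjusted p of 0.219 without the block, and 1.5 ± 0.20 with an edgeR adjusted p of 0.0366 with it. DESeq2 without the block gave an adjusted p of 0.00285 for TRIM22, which was the 1 member it called. The share of all genes called higher was 0.184% with the block and 0.498% by DESeq2.

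The IFIT genes gave values in both directions, none of them past the threshold. IFIT2 was at 100.1, 91.2 and 107 CPM after osimertinib (log2 fold change 0.37 ± 0.12 (SE), edgeR adjusted p = 0.506), IFIT3 at 111, 123 and 121 CPM (log2 fold change 0.47 ± 0.16 (SE), edgeR adjusted p = 0.512) and IFIT5 at 52.4, 57.3 and 58.0 CPM (log2 fold change -0.36 ± 0.12 (SE), edgeR adjusted p = 0.506). With the values in vehicle given above, the treated libraries of IFIT2 and IFIT3 were all above the vehicle libraries (64.6, 105 and 88.6 CPM for IFIT3) and those of IFIT5 were all below. The groups did not overlap in 4 members on the higher side (IFIT2, IFIT3, HERC5 and TRIM22) and in 1 on the lower side (IFIT5), against 5.96% and 6.81% of all genes.

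Among regulators and class I genes, NLRC5 had the farthest estimate, from 57.2, 26.9 and 14.4 CPM in vehicle to 15.4, 11.7 and 17.8 CPM after osimertinib. Sample 2a is far above the other vehicle libraries and the groups overlap (log2 fold change -1.13 ± 0.53 (SE), edgeR adjusted p = 0.673). HLA-B, at 1155, 777 and 523 CPM, and HLA-E, at 374, 389 and 357 CPM, overlapped their vehicle libraries, and B2M went from 3.88, 4.34 and 2.5 to 9.50, 4.29 and 2.66 CPM with Sample 4a alone standing out. The median log2 fold change of the 42 members was 0.00836, beside 0.00751 for all genes.

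**Figure D4:**
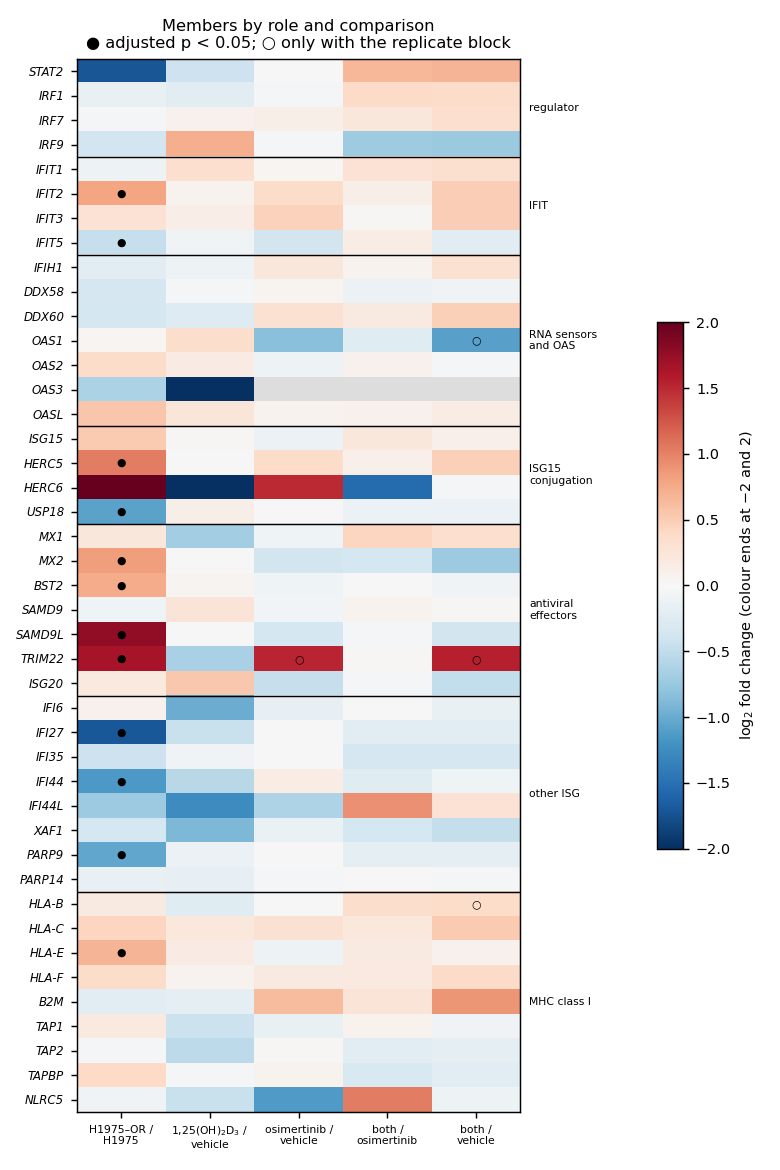
Log2 fold change of the 43 members (rows, grouped by role) in 5 comparisons (columns), with the colour scale ending at -2 and 2 and grey cells for OAS3 where it was not tested. Filled dots mark the 12 members that passed with edgeR, all of them in the first column. Open dots mark TRIM22, OAS1 and HLA-B, which passed only with the replicate block, and were drawn only for osimertinib and both agents against vehicle. OASL and ISG15, which passed only with the block between the lines, carry no dot.

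Both agents against vehicle in H1975–OR gave 0.496% of 12503 genes called without the block and none of the 42 members. An unadjusted p under 0.05 was found for 5 of the members, all higher, and for 12.5% of all genes. DESeq2 called 2 members higher, TRIM22 and IFIT2, where it called 1.88% of all genes higher. With the block, 3 members passed: TRIM22 and HLA-B were higher, with 2.26% of all genes, and OAS1 was lower, with 1.42% of all genes.

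TRIM22 was at 37.0, 61.7 and 34.4 CPM after both agents, near its values after osimertinib alone and above each vehicle library. Its log2 fold change was 1.56 ± 0.32 with an edgeR adjusted p of 0.0734 without the block, and 1.51 ± 0.20 with an edgeR adjusted p of 0.0108 with it. IFIT2, at 113, 109.9 and 104 CPM, was above all vehicle libraries (log2 fold change 0.49 ± 0.12 (SE), edgeR adjusted p = 0.157), and with the block its edgeR adjusted p was 0.0535.

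HLA-B was at 1594, 960.2 and 607 CPM after both agents, and the groups overlap widely (edgeR adjusted p = 0.796 without the block). Within each letter the treated library was above its vehicle library, which gave a log2 fold change of 0.36 ± 0.07 and an edgeR adjusted p of 0.0336 with the block. OAS1, a synthetase that activates RNase L upon double-stranded RNA, was at 8.99, 32.4 and 29.8 CPM in vehicle and at 6.21, 12.4 and 15.1 CPM after both agents. It was lower within each letter, although Sample 2a was below Samples 5b and 5c (with the block log2 fold change -1.0 ± 0.21 (SE), edgeR adjusted p = 0.0414).

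The groups of both agents and vehicle did not overlap in 6 members on the higher side (IRF1, IFIT1, IFIT2, IFIT3, IFIH1 and TRIM22) and in 3 on the lower side (IFI35, MX2 and XAF1), against 8.08% and 8.25% of all genes. IRF1 was at 38.8, 35.7 and 40.8 CPM after both agents (log2 fold change 0.36 ± 0.15 (SE), edgeR adjusted p = 0.365) and IFIT1 at 96.5, 89.7 and 94.0 CPM, where vehicle gave 76.0, 80.6 and 66.2 CPM (log2 fold change 0.33 ± 0.14 (SE), edgeR adjusted p = 0.372). The median log2 fold change of the 42 members was -0.0218, beside 0.00121 for all genes. This comparison and that of osimertinib share the 3 vehicle libraries.

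**Figure D5:**
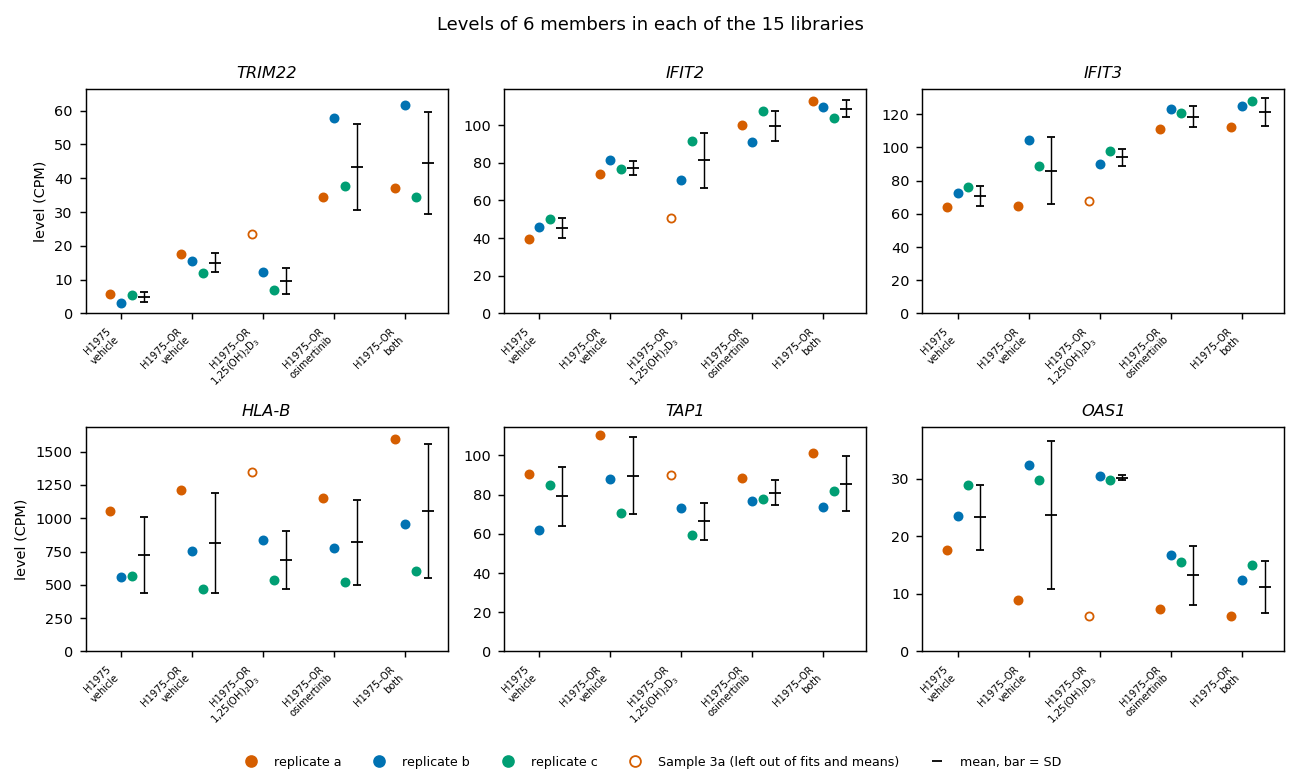
Level in CPM (y axis, from 0) of TRIM22, IFIT2, IFIT3, HLA-B, TAP1 and OAS1 in each library by group (x axis), with points coloured by replicate letter, an open point for Sample 3a, and the mean with SD beside each group. TRIM22 libraries given osimertinib, alone or with 1,25(OH)2D3, lie between 34.4 and 61.7 CPM, and replicate a is the highest library of each group for HLA-B and TAP1 and the lowest for OAS1.

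1,25(OH)2D3 on top of osimertinib, Samples 5 against Samples 4, gave no member of 42 that passed with edgeR or DESeq2, with or without the block, where 0.096% of all genes passed with edgeR. An unadjusted p under 0.05 was found for 1 of the 42 members and for 4.16% of all genes. It was that of IRF1, which went from 28.3, 26.4 and 33.5 CPM to 38.8, 35.7 and 40.8 CPM. Its libraries did not overlap (log2 fold change 0.38 ± 0.15 (SE), edgeR adjusted p = 1.00). The groups did not overlap in 5 of the 42 members on the higher side, IRF1 among them, and in 0 on the lower side. Over all 12503 genes this held for 478 and 516. The median log2 fold change of the members was 0.0694, beside 0.00294 for all genes. The difference between the effects of 1,25(OH)2D3 with and without osimertinib was tested as an interaction, in which 0% of all genes and none of the members passed. In that test 3 members, IRF1, IFI6 and MX1, had an unadjusted p under 0.05 with edgeR, as had 2.64% of all genes, and none passed by DESeq2 after adjustment.

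Several members lined up with the replicate letter, a pattern chosen after its values were seen and given without a test. In 5 members, HLA-B, HLA-F, TAP1, TAP2 and MX1, the library of letter a was the highest of its group in all 5 groups, and in 5 others, ISG15, OAS1, OASL, DDX60 and IFIT3, it was the lowest in all 5. This is 11.6% of the members each way, against 3.73% and 3.57% of 12819 genes. With Samples 3 set aside the pattern was found in 5 members each way over the 4 remaining groups, and in 693 and 678 of the 12819 genes. HLA-B in letter a, at 1053 CPM in H1975 and 1213, 1155 and 1594 CPM in H1975–OR given vehicle, osimertinib and both agents, was above every b and c library of the whole set. TAP2, at 80.4, 71.9, 74.1 and 72.1 CPM in the same libraries, was likewise above the b and c libraries. OAS1 in H1975–OR was at 8.99, 7.41 and 6.21 CPM in letter a, and OASL at 38.2, 48.1 and 47.3 CPM, below every b and c library of that line. HLA-B, HLA-F and the peptide transporter genes thus stood high in the letter in which ISG15, OAS1 and OASL stood low, in both lines. The interferon-stimulated gene MX1 stood high with them. Of the other class I genes, letter a was highest in 4 of 5 groups for HLA-C and NLRC5, 3 for B2M, 2 for TAPBP and 1 for HLA-E. The letters were not taken to pair the lines.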

How the data were processed

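Stranded total RNA-seq libraries were made by the authors from ribosome-depleted RNA and sequenced on a NextSeq500. The authors quantified transcripts with Kallisto (0.43.0 per the labels, with GRCh38) and summed them to genes with tximport, so the deposited values are estimated counts that need not be whole. They were rounded here. Fits used edgeR 4.0.16 (TMM, quasi-likelihood test, filterByExpr with a count minimum of 10 and a total of 15) and Benjamini-Hochberg adjustment over all genes tested, on 8 libraries (both lines in vehicle and 1,25(OH)2D3) or on the 11 H1975–OR libraries. Sample 3a was left out. Errors are SD of CPM or SE of log2 fold changes, and p-values measure the spread between passages.

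Same-letter libraries deviated together in the osimertinib comparisons (correlations over all genes of 0.124 to 0.310, 0.258 to 0.464 and 0.118 to 0.341), so the letters were taken to pair them. Over the members these correlations were -0.133 to 0.198, 0.505 to 0.721 and 0.0156 to 0.190. The pairing is thus weak for the members in the 2 comparisons with vehicle. Between the lines the correlations were -0.030 to 0.022 over all genes and 0.226 to 0.351 over the members. The decision was made over all genes, so the lines were not treated as paired, and 1,25(OH)2D3 alone has 2 pairs. The members and the gene lists were chosen with earlier results of these data known. Members that passed are named in full, up to 12 per comparison, with a fixed set of regulators and class I genes, and other genes of the lists where they passed, up to 4 per list. On simulated data with 200 genes changed 4-fold the fit recovered 147 for the first comparison, with 8 false calls. It recovered 148 for 1,25(OH)2D3 alone, 143 for osimertinib, 137 for both agents against osimertinib and 154 for both agents against vehicle. For the interaction it recovered 86, so changes of this size there would often be missed. Alternatives were DESeq2 1.42.0, RLE scaling, other filters, other sets of libraries, the replicate block and each library left out.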

Additional observations from a re-analysis of the deposited data

Results flagged for a closer look

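Sample 3a, the 1,25(OH)2D3 library that no fit used, held 4 members above their level in each of the other 14 libraries and 6 below it. The share of all genes at such extremes was not counted, and this library differed from its replicates over all genes. The 4 higher members are given here as values. NLRC5, the class I transactivator, was at 78.1 CPM in Sample 3a, where the highest of the other libraries was at 57.2 CPM. TAPBP, the loading factor tapasin, was at 226 CPM, against at most 165 CPM elsewhere. TAP2, of the peptide transporter, was at 89.8 CPM, against at most 80.4 CPM. MX1 was at 20.6 CPM, against at most 19.4 CPM. With 1 library there is no test of these values, and the monocyte marker CD14 was at 50.8 CPM in the same library. Groups of 3 libraries were too small for a search for single deviating samples.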

How the results depend on the processing

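Between H1975–OR and H1975 in vehicle, 12 members passed, and leaving out 1 library gave 6 to 13. The letters were not taken to pair the lines, and the replicate block there gave 11 members, 8 higher and 3 lower: MX2, IFIT5 and USP18 no longer passed, and OASL and ISG15 passed. None of the 12 calls changed direction in any alternative. Over the 8 alternatives that leave out no library, 84 of the 96 repeated calls passed. With 1,25(OH)2D3 alone, with both agents against osimertinib, and for the interaction, 0 members passed in each alternative run, the block included, and the 2 alternatives for 1,25(OH)2D3 in the 11 H1975–OR libraries, which were chosen after seeing the data, also gave 0. For osimertinib against vehicle, 0 members became 1 with DESeq2 and 1 with the replicate block. For both agents against vehicle, 0 became 2 with DESeq2 and 3 with the replicate block. Without Sample 5a the log2 fold change of HLA-B for both agents, in the fit without the block, changed from 0.37 to -0.057, the lowest of 6 such values, and without Sample 2a it was 0.77, the highest. The cause was not tested. The median log2 fold change of the members moved by less than the spread between replicates in 83 of 89 repeats and lay between -0.17 and 0.23 over all of them. Depth limits the members with few counts: STAT2, IRF9, OAS3 and HERC6 each had a library with 0 counts.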
